A study of Mus musculus with 30 samples.

Results

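The genes described here encode the small basic proteins that pack DNA in the sperm head and their close relatives: the protamine genes Prm1, Prm2 and Prm3, the transition protein genes Tnp1 and Tnp2, and Hils1, which encodes a linker histone-like protein of spermatids. They were taken by name from the sperm RNA tables of the series, where all 6 were found in the table for 24 h, among 15372 mRNAs and lincRNAs, and all 6 in the table for 46 days, among 2458. Each of the 6 passed the count filter of both tables.

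The study asked whether activating peroxisome proliferator-activated receptors (PPARs) in male mice alters the RNA of their sperm. Males aged 3 months received tesaglitazar, an agonist of both PPARα and PPARγ, at 10 µg per kg body weight, by intraperitoneal injection 2 times per week for 4 weeks (TESA), or DMSO in saline as vehicle on the same schedule (CTRL). The males were wild-type C57Bl/6J mice, and no group carried a transgene. Sperm was collected 24 h after the last injection (4 TESA and 4 CTRL libraries of polyadenylated RNA) or 46 days after it (7 TESA and 7 CTRL libraries of total RNA depleted of rRNA). Sperm had swum out of the cauda epididymis and had been treated with a lysis buffer against somatic cells. The methods of the study count animals in general, but the labels number the libraries without saying that each came from a separate male or which were left out of the analysis published, and all deposited sperm libraries were used here, so p-values measure the spread between these libraries, which may be technical in part.

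In round spermatids the genome is still wrapped around histones, and as the nucleus elongates these are removed and replaced first by transition proteins and then by protamines, whose many arginines let DNA condense tightly. The mRNAs are made in round spermatids, stored in ribonucleoprotein particles and translated days later, after transcription has stopped. Mature sperm are transcriptionally silent, so their protamine and transition protein mRNAs are remnants of that store.

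The libraries held 15337517 to 27709918 estimated counts at 24 h and 4538101 to 13513801 at 46 days. At 24 h RP23-81C12.3 took 32.1% of all counts, followed by Lars2, L1Md_T, Mir6236 and mt-Rnr2. At 46 days Rn18s-rs5 took 56.9% and Yam1 17.5%, followed by B4A, L1Md_F2 and Rn7s1. Outside the 5 most abundant features of that table, 158852 counts were left in TESA library 2 and 7119432 in CTRL library 14. The precision for low mRNAs therefore differed widely between libraries at 46 days. The median of these remaining counts was 621027 in TESA and 1135237 in CTRL libraries, with overlapping ranges. Libraries of the same group differed by more than counting noise in all 12 pairs at 24 h and all 42 pairs at 46 days, and no library was a copy of another.

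Markers of late spermatids and sperm were present in both tables, 5 of 5 in each. Their summed level was 2450 to 8982 CPM (counts per 1e+06 counts, scaled by the trimmed mean of M values, TMM) at 24 h and 192 to 394 CPM at 46 days. At 24 h the most abundant of them was Odf1, a protein of the tail's outer dense fibres, with a mean of 2309 CPM. Marker mRNAs of other cell types were present at 24 h too. All 7 leukocyte markers were in that table, with a sum of 1169 to 2540 CPM, of which Cd52, which epididymal epithelium also makes, had a mean of 1644 CPM, whereas Ptprc had 0.642 to 13.8 CPM. Of 8 epididymis markers 5 were in the table, with a sum of 348 to 1865 CPM led by Crisp1, and of 5 blood markers 4, with 53.5 to 269.9 CPM led by Hba-a2. All 3 smooth muscle markers had a sum of 6.94 to 44.2 CPM led by Myh11, 3 of 4 spermatogonium markers a sum of 33.0 to 82.1 CPM led by Uchl1, and Piwil2 of the 4 spermatocyte markers and Sox9 of the 6 Sertoli and Leydig cell markers had at most 3.96 and 4.502 CPM. The TESA and CTRL ranges overlapped for each of these lists, although the fold changes of all 4 blood markers were below 0 and those of all 3 smooth muscle markers above it. At 46 days none of the leukocyte, epididymis, blood, smooth muscle, spermatocyte or Sertoli and Leydig cell markers was in the table, which holds its more abundant features only, and Uchl1 was the sole spermatogonium marker in it.

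Some libraries stood apart. At 24 h CTRL library 4 had the lowest CPM of Prm1, Prm2, Prm3, Tnp1 and Tnp2 and the lowest sum of sperm markers, 2450 CPM. At 46 days TESA library 2, the lowest in counts outside the 5 most abundant features, had 93 counts of Prm2, 2 of Prm3 and 0 of Hils1, and TESA library 12 had 254, 5 and 4. CTRL library 13 had 14.0 counts of Prm1 beside 693 of Prm2. Libraries 11 to 14, 2 of each group, were set apart by their values in earlier results of these data, while the labels name no batch and the 4 were not alike among themselves, and fold changes and some ratios at 46 days are also given without them. In these bulk samples, fewer spermatids or sperm and less of an mRNA per cell cannot be told apart.

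In the GRCm38.p6 annotation of RefSeq, 4 of the 6 genes lie side by side on the minus strand of chromosome 16, within 8889 bp. They are Prm1 (chr16:10796332-10796823), Prm2 (chr16:10791377-10792105), Prm3 (chr16:10790508-10790914) and Tnp2 (chr16:10787935-10788655). Tnp1 lies at chr1:73015074-73015899, also on the minus strand. Hils1 lies at chr11:94967593-94968456 on the plus strand, inside Sgca (chr11:94962777-94976327), which runs on the minus strand, and the authors' counting used the strand. The estimate of Prm1 was more than 1e-06 from a whole number in 6 libraries of each table, which means that some of its reads were shared with other features, whereas the other 5 genes had whole estimates, by the same tolerance, throughout.

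**Figure D1:**
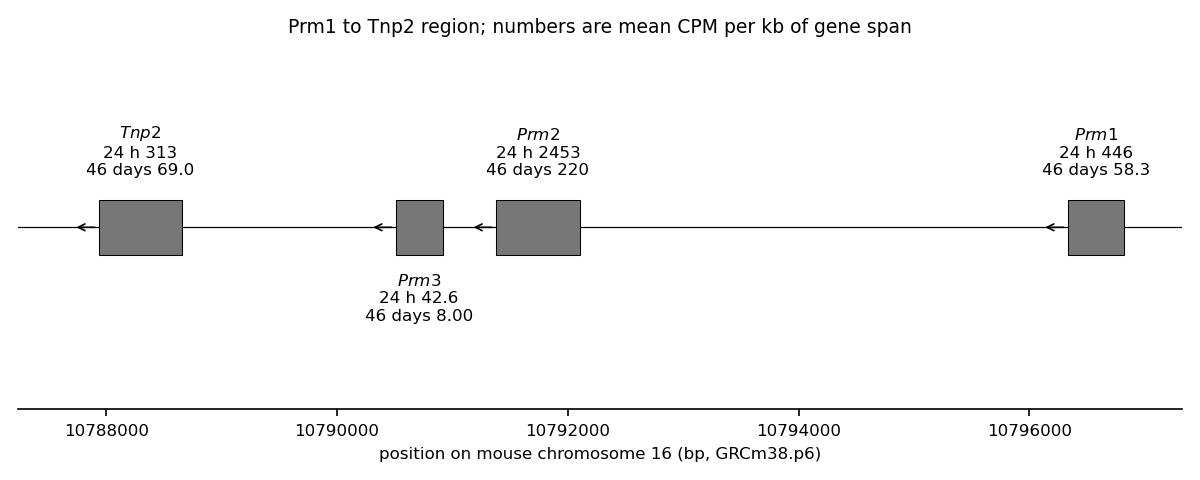
The 4 neighbouring genes drawn to scale along chromosome 16 (x axis, position in bp, GRCm38.p6); boxes are gene spans and arrows give the direction of transcription. The numbers beside each gene are its mean CPM per kb of span over all 8 libraries at 24 h and all 14 at 46 days, and Prm2 had the highest in both.

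Abundance was compared between the genes per kb of gene span, which includes any intron, because transcript lengths were not used here. At 24 h Prm2 led with 2453 CPM per kb ± 817 (SD, n = 8 libraries), which was 5.50 times the level of Prm1 (446 ± 153, SD). Tnp2 followed with 313 ± 87.0, Tnp1 with 112 ± 38.0, Prm3 with 42.6 ± 13.2 and Hils1 with 14.5 ± 3.52 CPM per kb. Each gene stood above the next in all 8 libraries, although the ranges of Prm1 and Tnp2, of Tnp2 and Tnp1, and of Prm3 and Hils1 over the libraries overlapped. At 46 days Prm2 again led, with 220.1 CPM per kb ± 69.999 (SD, n = 14), above the next gene in 14 of 14 libraries. Tnp2 (69.0 ± 15.04) and Prm1 (58.3 ± 29.3) did not differ beyond their spread, with Tnp2 the higher in 8 of 14 libraries. Tnp1 had 11.3 ± 2.40, Prm3 8.00 ± 2.55 and Hils1 3.05 ± 1.54 CPM per kb, and Tnp1 was above Prm3 in 12 of 14 libraries. The tables differ in RNA selection and were scaled separately, so levels are not compared between the time points.

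By mean CPM without regard to length, Prm2 ranked 18 of 15372 mRNAs and lincRNAs at 24 h, between the selenoenzyme gene Gpx3 and mt-Nd4, and between ranks 12 and 25 in single libraries. Tnp2 ranked 176, between the ribosomal gene Rpl37 and Eef1b2, and Prm1 181, between Osgin1 and Wfdc10. Tnp1 followed at 422, between Myh9 and AC116713.2, Prm3 at 2565, between Ccdc30 and Dcaf7, and Hils1 at 3585, between Ncbp1 and Afap1. At 46 days, in the shorter table, Prm2 ranked 57 of 2458, between Gpi1 and Gm26905, and Tnp2 212, between Leng8 and Vav2. Prm1 ranked 345, between RP23-9O15.2 and Notch1, with single libraries from rank 201 to rank 2285, the last in CTRL library 13. Tnp1 ranked 868, between Gm10382 and Micall2, Prm3 1782, next above Dnajb6, and Hils1 2025, between RP23-433B2.4 and Prss52.

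At 24 h edgeR (quasi-likelihood, adjusted by Benjamini-Hochberg) called 0 of the 6 genes at an adjusted p under 0.05, and 0 of the 13032 mRNAs and lincRNAs tested (0%), as did its exact test, DESeq2 and limma voom. At an unadjusted p under 0.05 the count was again 0 of 6, against 313 of 13032 (2.40%). The CPM of TESA and CTRL libraries overlapped for all 6 genes, where 3.05% of the genes tested had groups that did not. Log2 fold changes were above 0 for 2 of the 6, against 49.1% of the genes tested. Adjusted p was 1.00 for each gene in this comparison.

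Prm1 encodes the smaller of the DNA-packing protamines. At 24 h it had 255, 140, 219 and 169 CPM in TESA libraries 1, 3, 5 and 7 and 322, 106, 256 and 289 CPM in CTRL libraries 2, 4, 6 and 8. The TESA values lay inside the CTRL range, which CTRL library 4 opened at the bottom. The log2 fold change, TESA over CTRL, was -0.31 with a standard error of 0.35. Leaving out 1 library at a time gave -0.54 (without CTRL library 4) to -0.13 (without CTRL library 2).

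Prm2 encodes a protamine that is made as a longer precursor and trimmed on the DNA. It had 1944, 1495, 2827 and 1675 CPM in TESA libraries 1, 3, 5 and 7 and 2038, 726, 1586 and 2015 CPM in CTRL libraries 2, 4, 6 and 8. TESA library 5 was the highest and CTRL library 4 the lowest, and the other 6 libraries lay between 1495 and 2038 CPM. The log2 fold change was 0.32 with a standard error of 0.39, and leaving out 1 library gave 0.10 (without CTRL library 4; 0.12 without TESA library 5) to 0.48 (without CTRL library 2).

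Prm3 encodes an acidic protein of the spermatid cytoplasm and not a DNA-packing protamine. It had 18.8, 11.9, 23.1 and 21.2 CPM in the TESA libraries and 23.1, 8.01, 16.4 and 16.3 CPM in the CTRL libraries, and its log2 fold change was 0.23 with a standard error of 0.34. The groups overlapped, and leaving out 1 library gave 0.03 (without CTRL library 4) to 0.48 (without CTRL library 2).

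Tnp1 encodes the transition protein that is more abundant as protein, while its mRNA was below that of Tnp2 in all 8 libraries at 24 h. It had 99.98, 58.7, 89.1 and 78.9 CPM in TESA libraries 1, 3, 5 and 7 and 153, 54.0, 94.7 and 111 CPM in CTRL libraries 2, 4, 6 and 8. As with Prm1, the TESA values fell inside the CTRL range, and the log2 fold change was -0.34 with a standard error of 0.32, and leaving out 1 library gave -0.53 (without CTRL library 4) to -0.07 (without CTRL library 2). Tnp2, the arginine-rich, zinc-binding transition protein, had 241, 171, 249.7 and 205 CPM in the TESA and 341, 128.7, 219 and 248.5 CPM in the CTRL libraries. Its log2 fold change was -0.11 with a standard error of 0.30, a difference well within the spread. It had the opposite sign, 0.14, without CTRL library 2.

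Hils1, whose product resembles linker histone H1 and appears in spermatid nuclei as they elongate, had 17.0, 11.4, 12.3 and 7.43 CPM in the TESA and 14.7, 9.54, 13.3 and 14.2 CPM in the CTRL libraries. TESA library 1 was the highest and TESA library 7 the lowest of all 8, and the log2 fold change was -0.11 with a standard error of 0.30, from -0.31 without TESA library 1 to 0.07 without TESA library 7. Hils1 was the only gene of the 6 for which CTRL library 4 was not the lowest. With library totals in place of TMM, which moved the median log2 fold change of all genes tested at 24 h from -0.01 to 0.21, those of Tnp2 and Hils1 were 0.10 and 0.00267.

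**Figure D2:**
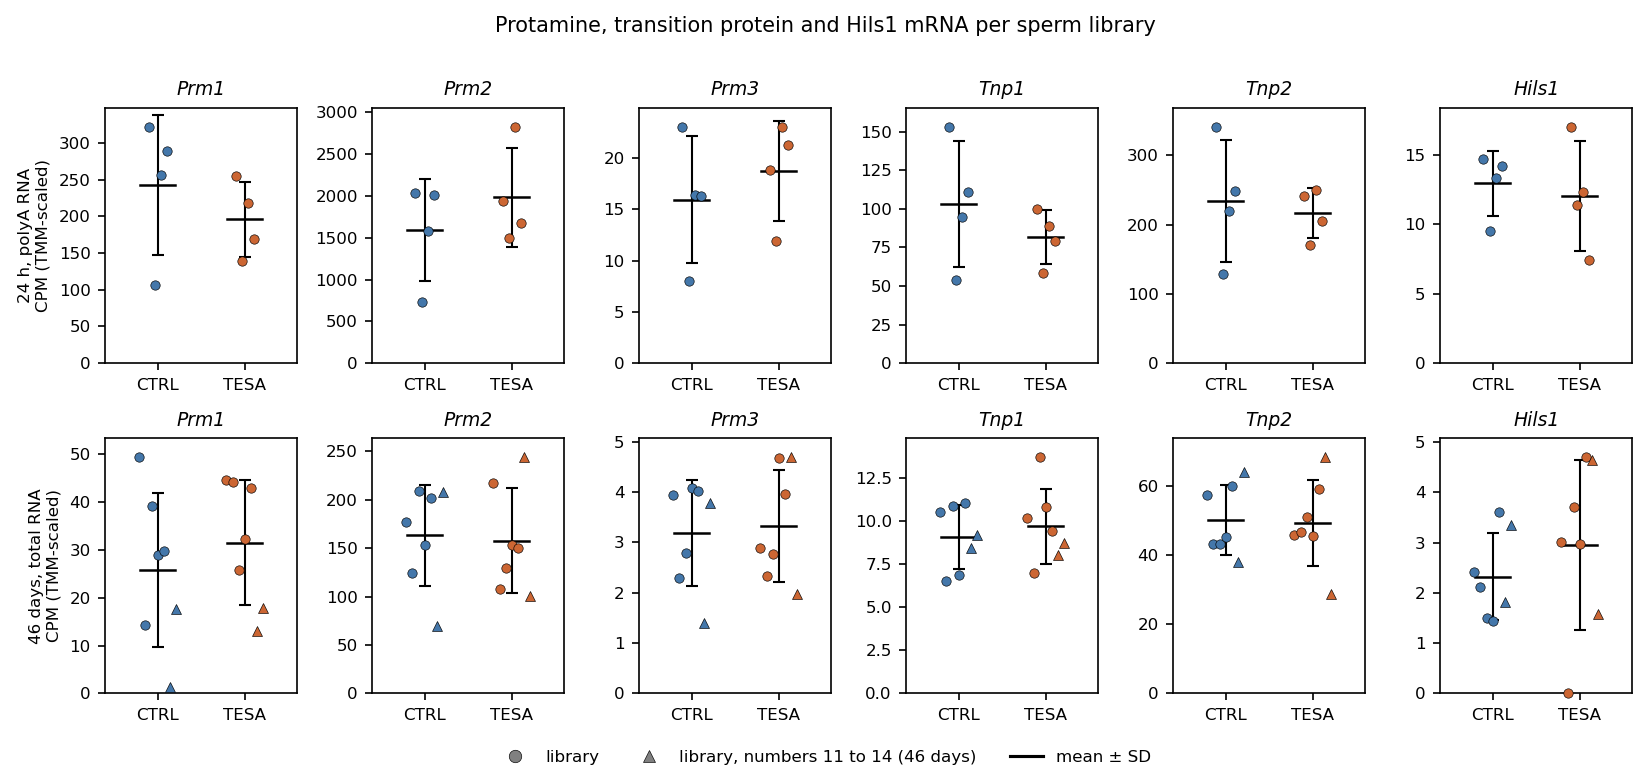
CPM scaled by TMM (y axis) of the 6 genes in each CTRL and TESA library at 24 h (upper panels) and at 46 days (lower panels); points are libraries, triangles are libraries 11 to 14 at 46 days, and bars are the mean ± SD (n = 4 per group at 24 h and 7 at 46 days). The groups overlapped in each of the 12 panels, and Prm1 was lowest at 46 days in CTRL library 13, with 1.41 CPM.

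Ratios between the genes were compared within each library, since no scaling changes them. At 24 h there were 0.131, 0.0935, 0.0773 and 0.101 Prm1 counts per Prm2 count in TESA libraries 1, 3, 5 and 7. The CTRL libraries 2, 4, 6 and 8 had 0.158, 0.146, 0.161 and 0.143. Each of the 4 TESA ratios was below each of the 4 CTRL ratios, CTRL library 4 included, and the CTRL libraries lay close together. The log2 ratio was -3.34 ± 0.32 (SD, n = 4) in TESA and -2.72 ± 0.08 (SD, n = 4) in CTRL, a difference of -0.62 with a standard error of 0.16 (two-sided exact permutation test, p = 0.0286, the smallest that 4 against 4 can give). Adjusted by Benjamini-Hochberg over the 12 ratios computed, 6 at each time point, the exact test gave p = 0.171 and did not pass 0.05. With any 1 CTRL library left out the differences were -0.65 to -0.59, and the exact test gave p = 0.0571. Groups that are apart cannot overlap after a library is removed, so only the size of the difference could change here. Prm2 accordingly made up 75.5% to 82.7% of the counts of the 6 genes in TESA libraries and 70.3% to 74.8% in CTRL libraries.

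The transition proteins showed the same arrangement. There were 0.415, 0.343, 0.357 and 0.384 Tnp1 counts per Tnp2 count in the TESA libraries and 0.449, 0.420, 0.432 and 0.447 in the CTRL libraries. Again each TESA ratio was below each CTRL ratio, though by a smaller margin. The difference in log2 ratio was -0.22 with a standard error of 0.06 (n = 4 and 4, two-sided exact permutation test, p = 0.0286, adjusted p = 0.171). These were the 2 of 6 ratios at 24 h whose groups did not overlap. Over all pairs of genes tested at 24 h the share of ratios with groups apart was 3.04%, over all ratios to Prm2 it was 2.72%, and over all ratios to Tnp2 it was 1.63%. The 6 ratios are built from 6 genes and are not independent of each other.

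The groups overlapped for the other 4 ratios at 24 h. Prm2 to Tnp2 was 8.07, 8.74, 11.3 and 8.16 in TESA and 5.97, 5.65, 7.23 and 8.11 in CTRL libraries, so that only CTRL library 8 reached the TESA range. The difference in log2 ratio was 0.43 with a standard error of 0.17 (two-sided exact permutation test, p = 0.0571, adjusted p = 0.171), and leaving out 1 library gave 0.32 to 0.52 with an exact p from 0.0286 to 0.0857. Prm3 to Prm1 differed by 0.52 with a standard error of 0.19 (exact p = 0.0571, adjusted p = 0.171), and leaving out 1 library gave 0.39 to 0.64 with an exact p from 0.0286 to 0.114. Prm1 to Tnp1 differed by 0.04 with a standard error of 0.13 (exact p = 0.83), and Hils1 to Prm1 by 0.09 with a standard error of 0.29 (exact p = 0.80).

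At 46 days, when sperm came from germ cells that had been at an early stage during the injections, edgeR's quasi-likelihood test called 0 of the 6 genes at an adjusted p under 0.05, and 0 of the 2262 mRNAs and lincRNAs tested (0%). Its exact test called 12 of the 2262 and 0 of the 6, and DESeq2 and limma voom called 0. At an unadjusted p under 0.05 there were 0 of 6, against 130 of 2262 (5.75%). Groups overlapped for all 6, and over all genes tested 0.0442% had groups apart. Log2 fold changes were below 0 for 2 of the 6, against 44.6% of the genes tested. The adjusted p was 0.999 for each of the 6.

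Prm1 ranged from 13.0 to 44.6 CPM in TESA, with a median of 32.3, and from 1.41 to 49.4 CPM in CTRL, with a median of 29.0. CTRL library 13 was lowest at 1.41 CPM, and the other libraries numbered 11 to 14 had 13.0 to 17.8 CPM. The log2 fold change was 0.28 with a standard error of 0.50, the widest error of the 6. Leaving out 1 library gave 0.07 (without CTRL library 13) to 0.49 (without CTRL library 6). Prm2 ranged from 100.4 to 244 CPM in TESA (median 150.4) and from 69.7 to 209 in CTRL (median 177), a log2 fold change of -0.05 with a standard error of 0.25. The range of 2 standard errors on either side runs from -0.56 to 0.46. Prm3, with 2 to 297 counts per library, ranged from 1.98 to 4.70 CPM in TESA and 1.41 to 4.09 in CTRL, and its log2 fold change was 0.13 (standard error 0.28).

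The transition protein mRNAs had the smallest standard errors of the 6 at 46 days. Tnp1 ranged from 6.98 to 13.7 CPM in TESA (median 9.40) and from 6.54 to 11.0 in CTRL (median 9.16), and its log2 fold change was 0.12 with a standard error of 0.18, from 0.0067 without TESA library 3 to 0.17 without CTRL library 10. Tnp2 ranged from 28.9 to 68.3 CPM in TESA (median 46.6) and from 37.9 to 64.1 in CTRL (median 45.3), with a log2 fold change of -0.02 and a standard error of 0.18. Their intervals of 2 standard errors run from -0.24 to 0.49 and from -0.38 to 0.34. Hils1 had 0 to 4.70 CPM in TESA (median 3.01) and 1.45 to 3.61 in CTRL (median 2.12). Of the 7 TESA libraries 3 were above each CTRL library and TESA library 2, with 0 counts, was below all, and the log2 fold change of 0.48 had a standard error of 0.34.

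Scaling by library totals instead of TMM moved the median log2 fold change of all genes tested at 46 days from 0.03 to -1.03, and those of the 6 genes moved with it, to between -1.09 and -0.61. In libraries 1 to 10 alone, scaled by TMM, the log2 fold changes were 0.23 (Prm1), -0.18 (Prm2), 0.0072 (Prm3), 0.22 (Tnp1), -0.00063 (Tnp2) and 0.54 (Hils1). The effects at 46 days and at 24 h were also compared in a single edgeR model of all 22 libraries. This difference was called for 0 of 2141 genes after adjustment and for 106 at an unadjusted p under 0.05, and none of the 6 genes was among them. The differences ran from -0.54 for Prm2 (standard error 0.53) to 0.41 for Hils1 (standard error 0.53), with an adjusted p of 0.998 for each. The time points differ in RNA selection as well, which cannot be told apart from time.

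The low Prm1 to Prm2 ratio of TESA libraries at 24 h was not seen at 46 days. Prm1 counts per Prm2 count ranged from 0.0532 to 0.409 in TESA, and from 0.0202 to 0.279 in CTRL libraries. The mean log2 ratio was -2.37 ± 0.92 (SD, n = 7) in TESA and -3.08 ± 1.21 (SD, n = 7) in CTRL, so the difference of 0.71, with a standard error of 0.57, had the opposite direction and was within the spread (two-sided exact permutation test, p = 0.255, adjusted p = 0.611). It fell to 0.30 without CTRL library 13 and rose to 1.02 without TESA library 11. The effects at 46 days and 24 h differed by 1.33 (permutation of labels within each time point, a test added after the data were seen, p = 0.0313, Benjamini-Hochberg adjusted p = 0.188 over 6 ratios). Libraries 11 to 14 had 0.0202 to 0.177 Prm1 counts per Prm2 count and libraries 1 to 10 0.116 to 0.409, so that TESA library 12, at 0.177, lay inside the range of the latter. Within libraries 1 to 10, which were set apart for the ratios after the data were seen, the difference was 0.52 (5 against 5, exact p = 0.0952), and within libraries 11 to 14 it was 1.19 (2 against 2, exact p = 0.667, where the smallest possible is 0.333). For Tnp1 to Tnp2 the difference at 46 days was 0.17 with a standard error of 0.22 (exact p = 0.462), and leaving out 1 library gave 0.066 to 0.30. The groups overlapped for all 6 ratios at 46 days, where 0.0427% of all gene pairs had groups apart, and their adjusted p in the exact test was 0.611 or more.

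**Figure D3:**
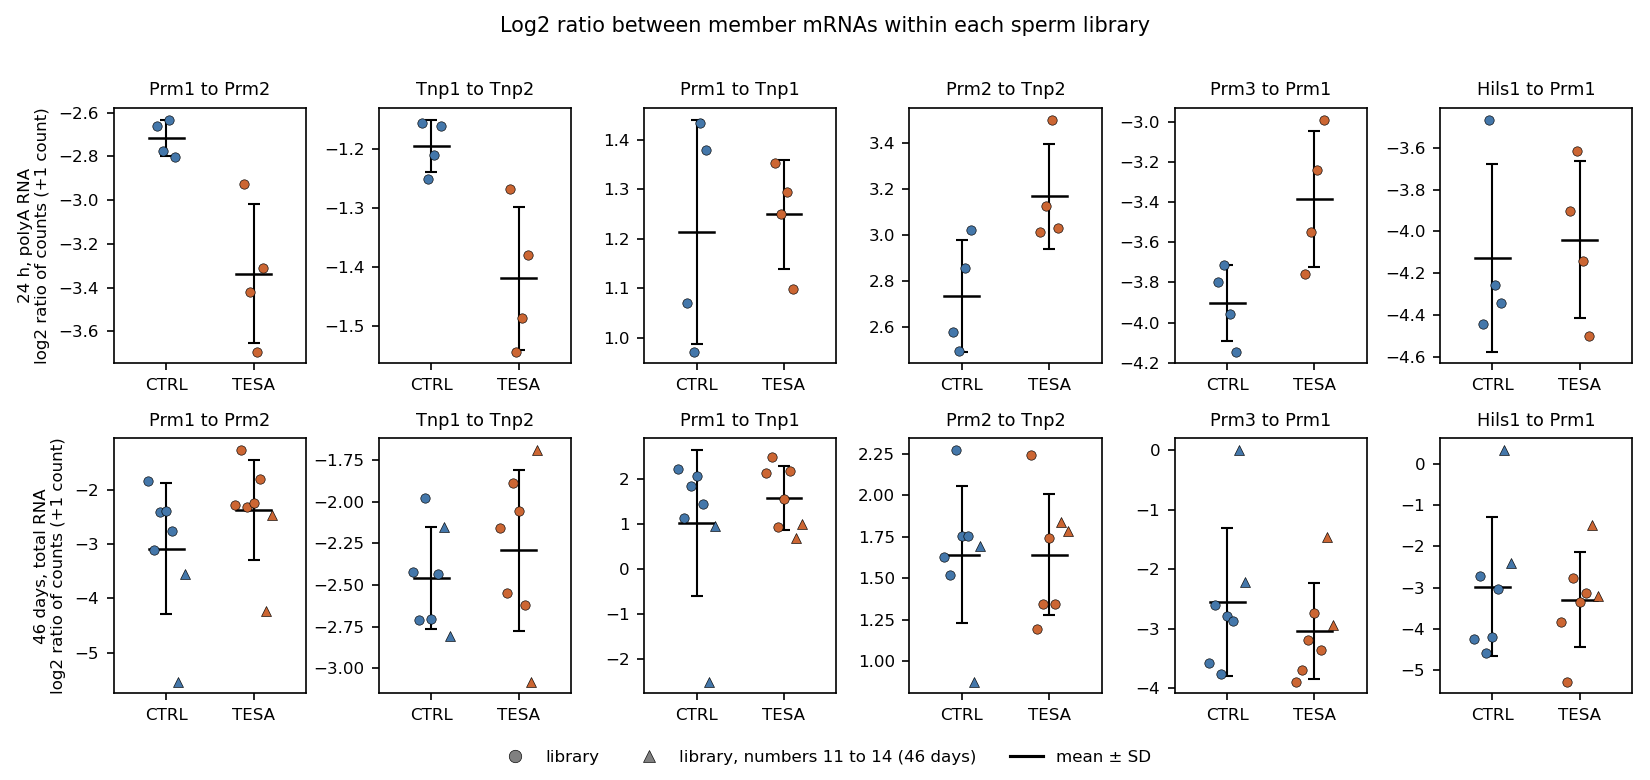
Log2 ratio of estimated counts, with 1 count added to each (y axis), between 6 pairs of the genes in each CTRL and TESA library at 24 h (upper panels) and 46 days (lower panels); points are libraries, triangles are libraries 11 to 14 at 46 days, and bars are the mean ± SD (n = 4 per group at 24 h and 7 at 46 days). The groups were apart for Prm1 to Prm2 and for Tnp1 to Tnp2 at 24 h and overlapped in the other 10 panels.

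Together the 6 genes took 0.274% ± 0.0938 (SD, n = 4) of all counts in TESA and 0.212% ± 0.0942 (SD, n = 4) in CTRL libraries at 24 h. At 46 days the share was 0.00204% to 0.166% in TESA (median 0.0125%) and 0.0118% to 0.249% in CTRL (median 0.0333%). Without TESA library 11, the highest of its group, the TESA mean fell from 0.0360% to 0.0143%, and without CTRL library 14 the CTRL mean fell from 0.0693% to 0.0393%. Of counts outside the 5 most abundant features the mean shares at 46 days were 0.227% in TESA and 0.242% in CTRL.

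Across the libraries at 24 h Prm1, Tnp1 and Tnp2 varied together most closely. Pearson's r of log2 CPM over the 8 libraries, which share a scaling and a protocol, was 0.96 between Tnp1 and Tnp2, 0.96 between Prm1 and Tnp1 and 0.94 between Prm1 and Tnp2. Prm2 was nearer to Prm3 (r = 0.89) than to Prm1 (r = 0.75). For Hils1, r was 0.27 with Prm3, 0.45 with Prm2, 0.59 with Tnp2, 0.63 with Tnp1 and 0.72 with Prm1. Without CTRL library 4, lowest in 5 of the 6 genes and in summed sperm markers, r over the other 7 libraries was 0.96 between Tnp1 and Tnp2, 0.95 between Prm1 and Tnp1 and 0.87 between Prm1 and Tnp2. It fell to 0.68 between Prm2 and Prm3, 0.42 between Prm1 and Prm2 and -0.04 between Prm3 and Hils1, and was 0.70 between Prm1 and Hils1. At 46 days, over 14 libraries, r ranged from -0.10, between Prm1 and Hils1, to 0.78, between Prm2 and Prm3, with a median of 0.43. These values are descriptions of few libraries.

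The genes whose log2 CPM was most like that of Prm2 over the 8 libraries at 24 h, among 7590 genes with a mean of at least 100 counts, were a gene known by its clone name only (r = 0.99), Rcc1, RP24-301O19.2, Slc25a3 and Tmem239 (r = 0.98 each). Prm3 came at place 134 in this order, Tnp2 at 308, Prm1 at 576, Tnp1 at 878 and Hils1 at 1794. At 46 days, among 1096 genes over 14 libraries, they were Spata18 (r = 0.96), Hspb9 (r = 0.96), Dnajb8, Lpin1 and Ccdc136 (r = 0.94 each). Tnp2 came at place 118, Prm1 at 180 and Tnp1 at 522. These 10 genes had log2 fold changes between -0.11 and 0.36, with unadjusted p from 0.356 to 0.899.

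The genes around the exchange of histones for protamines were described by list, with no test of a list as a whole. Over all genes tested, 2.40% had an unadjusted p under 0.05 at 24 h and 5.75% at 46 days. Of 15 spermatid and testis histone genes, 7 were in the 24 h table and 6 were tested, of which 0 had an unadjusted p under 0.05; 2 were above 0 and 4 below, with a median log2 fold change of -0.14 against -0.01 over all genes tested. The most abundant was H3f3b, a gene for the replacement histone H3.3, with 87.2 CPM in TESA and 91.2 in CTRL. The 2 with the smallest p were H2afz (-0.73, standard error 0.39), which encodes the variant H2A.Z, and H3f3a (0.34, standard error 0.32), the other H3.3 gene. H2afz had 23.5 CPM in CTRL library 8 and at most 12.4 in the others. At 46 days 2 of the 15 were tested, of which 1 had an unadjusted p under 0.05. H2afb1, a name for short H2A variant genes of the testis, had 3.38 CPM in TESA and 2.49 in CTRL, a log2 fold change of 0.47 (standard error 0.19, unadjusted p = 0.0257, adjusted p = 0.749 in the edgeR test). At 24 h it had the opposite sign, with 10.7 CPM in TESA and 14.5 in CTRL (log2 fold change -0.45, standard error 0.48). RefSeq lists H2afb1 as an old name of both H2ab1 and H2al2a, so which of them the values describe is not known, and H2al2a was counted as absent. H1fnt, a spermatid linker histone gene, had 6.58 and 6.31 CPM and a log2 fold change of 0.05.

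Of 24 genes for nucleosome removal and exchange, 21 were tested at 24 h, with 8 above 0, 13 below, 0 at an unadjusted p under 0.05 and a median of -0.08. The most abundant was Tssk6, a kinase needed for the exchange, with 263 CPM in TESA and 264 in CTRL. Ipo4, an importin that carries transition protein 2 (log2 fold change 0.60, standard error 0.32), and Chd5, a chromatin remodeller (-0.53, standard error 0.31), had the smallest p. Chd5 had 358 CPM in CTRL library 2 and at most 169.98 in the others. At 46 days 7 were tested, with 5 above 0, 2 below, 1 at an unadjusted p under 0.05 and a median of 0.15 against 0.03 over all genes tested. Chd5 was the most abundant, with 301 CPM in TESA and 325 in CTRL and a log2 fold change of -0.11. Psme4, whose product activates the proteasome for acetylated histones, had the smallest p (log2 fold change 1.69, standard error 0.67, unadjusted p = 0.0240, adjusted p = 0.749 in the edgeR test). It rested on TESA library 12, at 57.7 CPM, while the next library had 5.25. Epc1, of the NuA4 acetyltransferase complex, followed (0.58, standard error 0.28), again highest in TESA library 12.

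Among 20 genes for transcription, storage and translation of these mRNAs, 18 were tested at 24 h, with 6 above 0, 12 below, 0 at an unadjusted p under 0.05 and a median of -0.06. The poly(A)-binding protein gene Pabpc1 was the most abundant, with 72.4 CPM in TESA and 76.3 in CTRL. The smallest p belonged to Ptbp2, a splicing regulator (-1.97, standard error 1.04), at 0.589 and 2.33 CPM, and Crem, the transcription factor that acts on many spermatid promoters (-0.67, standard error 0.44), at 15.7 and 25.0 CPM. At 46 days 4 were tested, with 3 above 0, 0 at an unadjusted p under 0.05 and a median of 0.22; Rfx2, a factor of spermatid genes, was the most abundant (9.90 and 8.75 CPM), and Pabpc1 (0.81, standard error 0.64) and Camk4 (0.24, standard error 0.23) had the smallest p. Pabpc1 had 19.4 CPM in TESA library 12 and at most 3.35 in the others. The list for kinases and phosphatase that act on protamines held 6 genes, among them Ppp1r2, which encodes a phosphatase regulator. All 6 were tested at 24 h, with 2 above 0, 4 below, 0 at an unadjusted p under 0.05 and a median of -0.13. Srpk2 was the most abundant (65.0 and 68.7 CPM), and Srpk1, which phosphorylates protamine 1, and Ppp1r2 had the smallest p, with log2 fold changes of -0.22 and -0.17. At 46 days Srpk2 (-0.07) and Camk4 (0.24), a kinase of protamine 2, were tested, and 0 of these 2 had an unadjusted p under 0.05.

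Of 24 other abundant mRNAs of late spermatids, 23 were tested at 24 h, with 14 above 0, 9 below, 0 at an unadjusted p under 0.05 and a median of 0.10, and 18 at 46 days, with 12 above 0, 6 below, 0 at an unadjusted p under 0.05 and a median of 0.03, as over all genes tested. At 24 h Odf1 had 2276 CPM in TESA and 2342 in CTRL, and Cabs1 (-0.51, standard error 0.43) and Spata3 (0.45, standard error 0.39) had the smallest p. Cabs1 had 200.1 CPM in CTRL library 8 and at most 117 in the others. At 46 days Tcp11 was the most abundant, with 112 and 126 CPM, and Odf2 (-0.25, standard error 0.23) and Ldhc (0.23, standard error 0.29) had the smallest p.

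The promoters are shown for the genes of the 2 ratios whose groups did not overlap at 24 h. RefSeq promoters of the GRCm38.p6 build were found for all 6 genes, and only the 150 bases before the gene start are given. TGANNTCA, with any 2 bases in its middle, is a loose form of the element that cAMP-responsive factors such as CREM bind. Capitals mark it anywhere in the 150 bases, and mark TATA where it starts 40 to 21 bases before the gene start. Both read alike on either strand. Of 32851 promoters 8.37% held the first in a window of this length and 5.70% the second.
Prm1, chr16:10796824-10796973, minus strand: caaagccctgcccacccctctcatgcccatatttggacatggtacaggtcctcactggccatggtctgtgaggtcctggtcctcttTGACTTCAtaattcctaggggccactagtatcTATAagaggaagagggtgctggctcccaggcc
Prm2, chr16:10792106-10792255, minus strand: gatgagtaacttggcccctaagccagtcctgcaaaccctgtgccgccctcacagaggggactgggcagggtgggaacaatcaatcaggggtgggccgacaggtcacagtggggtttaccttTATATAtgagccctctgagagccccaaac
Tnp1, chr1:73015900-73016049, minus strand: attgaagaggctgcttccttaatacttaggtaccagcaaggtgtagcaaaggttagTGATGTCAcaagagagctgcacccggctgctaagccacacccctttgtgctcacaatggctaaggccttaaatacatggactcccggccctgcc
Tnp2, chr16:10788656-10788805, minus strand: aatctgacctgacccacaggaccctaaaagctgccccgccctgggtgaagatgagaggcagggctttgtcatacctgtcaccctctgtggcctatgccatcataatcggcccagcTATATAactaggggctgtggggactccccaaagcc
TGANNTCA was found in Prm1, starting 64 bases before the gene start, in Tnp1, 94 bases before it, and in Prm3, 60 bases before it, and not in the windows of Prm2, Tnp2 and Hils1. TATA was found in Prm1, starting 32 bases before the gene start, in Prm2, 29 and 27 bases before it, and in Tnp2, 35 and 33 bases before it. A match or its absence describes these letters only. Shorter forms of the element were not sought, and no factor's binding was measured here.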

How the data were processed

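The values are estimated counts that the authors deposited, made, per the submitters' processing notes, with Trim Galore 1.16 and Salmon 0.11.2 on GRCm38. Of the 30 samples, the 22 sperm libraries were used, and serum was left out. The members and lists were chosen with earlier results of these data known. The filter kept features above 20 counts in 4 or more libraries (24 h) or 6 or more (46 days). mRNAs and lincRNAs were tested in edgeR 4.0.16 (R 4.3.3) with TMM over all features, a two-sided quasi-likelihood test and Benjamini-Hochberg adjustment over the genes tested. Alternatives were the exact test, limma 3.58.1 (voom with quality weights throughout), DESeq2 1.42.0, other scalings, other filters and left-out libraries. The procedure was tested on simulated data. Ratios used counts plus 1 and two-sided exact permutation tests. The comparisons of ratios with all gene pairs, their differences between time points, their values within libraries 1 to 10 and 11 to 14 and the correlations without CTRL library 4 were added after the data were seen. Median depth was 22120643 (TESA) and 17444418 (CTRL) counts at 24 h and 8744995 and 8189891 at 46 days. Outside the 5 most abundant features it was 9746175 (TESA) and 8001106 (CTRL) at 24 h and 621027 and 1135237 at 46 days. Named were, by rule, each of the 6 genes, the 5 most abundant features of each table, the genes next above and next below each of the 6 in mean CPM, in each list the most abundant gene and the 2 with the smallest p, and the 5 genes best correlated with the most abundant of the 6, except that 2 genes with only a clone name (next above Prm3 at 46 days, and best correlated with Prm2 at 24 h) were left unnamed. Tables and figures used Python 3.11.15, pandas 2.3.3, numpy 2.4.6 and matplotlib 3.10.9.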

Additional observations from a re-analysis of the deposited data

Results flagged for a closer look

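In 48 groups of 4 to 7 libraries, 3 held a library far from the others by Dixon's test, where chance gives about 1 in 20. At 46 days CTRL library 13 had a log2 ratio of Prm1 to Tnp1 of -2.51, far below the other 6 CTRL libraries, and a log2 ratio of Prm3 to Prm1 of 0.0026, far above them. Both come from its 14.0 counts of Prm1. TESA library 11 had a log2 ratio of Prm1 to Prm2 of -4.23, far below the other 6 TESA libraries. The difference between time points was marked as well: the effect on the log2 ratio of Prm1 to Prm2 at 46 days minus that at 24 h was 1.33 (two-sided permutation test within time points, p = 0.0313, Benjamini-Hochberg adjusted p = 0.188 over 6 ratios), and it did not pass 0.05 after adjustment. The effect at 46 days in it, 0.71, was 0.30 without CTRL library 13. The causes were not tested.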

How the results depend on the processing

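None of the 6 genes had an adjusted p under 0.05, or an unadjusted p under 0.05, under any alternative run in edgeR, DESeq2 or limma. Over all genes, 0 passed an adjusted p of 0.05 at 46 days except with edgeR's exact test, which called 12. Genes with an unadjusted p under 0.05 ranged from 142 (library totals) to 919 (voom with quality weights) at 24 h. On leaving out 1 library they ranged from 219 to 481 (without TESA library 3). At 46 days they ranged from 37 (library totals) to 148 (exact test), and from 75 (without TESA library 12) to 179 (without TESA library 4) on leaving out 1 library.

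With library totals in place of TMM, log2 fold changes turned to 0.10 (Tnp2) and 0.0027 (Hils1) at 24 h and to -1.09 (Prm1), -0.88 (Prm3), -1.09 (Tnp1) and -0.61 (Hils1) at 46 days. In libraries 11 to 14 alone, Prm2 turned to 0.27 and Tnp1 to -0.19, and with voom Tnp2 turned to 0.043 at 46 days. Leaving out 1 library gave -0.29 to 0.14 (Tnp2) and -0.31 to 0.069 (Hils1) at 24 h, and -0.20 to 0.019 (Prm2), -0.016 to 0.19 (Prm3) and -0.12 to 0.052 (Tnp2) at 46 days.

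Leaving out 1 library at 24 h gave differences in log2 ratio of -0.76 to -0.50 for Prm1 to Prm2 and -0.27 to -0.18 for Tnp1 to Tnp2 (exact permutation p from 0.0286 to 0.0571), -0.045 to 0.11 for Prm1 to Tnp1, 0.32 to 0.52 for Prm2 to Tnp2, 0.39 to 0.64 for Prm3 to Prm1 and -0.056 to 0.31 for Hils1 to Prm1. At 46 days it gave 0.30 to 1.02 for Prm1 to Prm2, 0.066 to 0.30 for Tnp1 to Tnp2 and -0.042 to 0.74 for Prm1 to Tnp1. For Prm2 to Tnp2 the range at 46 days was -0.13 to 0.10, for Prm3 to Prm1 -0.75 to -0.066 and for Hils1 to Prm1 -0.62 to 0.24. Prm2 to Tnp2 at 46 days turned to 0.0045 with no pseudocount and to 0.52 in libraries 11 to 14, and Hils1 to Prm1 to 0.040 with a pseudocount of 5 and to 0.084 in libraries 1 to 10.

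Of mRNA and lincRNA counts the 6 genes made up on average 0.177% (CTRL; median 0.138%) and 0.102% (TESA; median 0.0513%) at 46 days, where TESA library 11 had 0.374% and the other TESA libraries at most 0.133%. Of counts outside the 5 most abundant features they made up 0.458% (CTRL) and 0.562% (TESA) at 24 h and 0.242% and 0.227% at 46 days. Ranks by median CPM were within the spread of the ranks over libraries. The causes were not tested. No paired analysis was possible because each library number occurs in only 1 of the groups compared. Ranking per kb of transcript was not run, since the reference held gene spans only. With 2 to 6 counts of Prm3 and Tnp1 in TESA library 2, low mRNAs are bounded poorly at 46 days.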
